A study of Mus musculus with 4 samples.

Results

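The AP-1 family transcription factors Fos, Fosb, Fosl1, Fosl2, Jun, Junb, Jund, Batf and Batf3 were followed from naive CD4+ T cells into the first 3 h of induced regulatory T (iTreg) cell culture, in wild-type (WT) and Nr4a-triple-knockout (Nr4a-TKO) cells. Members were taken by gene name, with every probe that carries the name, which gave 9 genes and 14 probes among 32877 genes and 56605 probes on the array. All 9 genes had at least 1 array well above background. 7 of the 9 genes were well above background on all 4 arrays, and the exceptions were Fosl1 and Batf3.

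AP-1 is a dimer of basic leucine zipper (bZIP) proteins. Jun proteins pair with each other or with Fos proteins, and Batf proteins pair with Jun proteins and, in T cells, bind composite sites together with the interferon regulatory factors Irf4 and Irf8. T cell receptor and CD28 signals reach the family through MAP kinases, which act both on the transcription of its genes and on the proteins, so that a transcript level is not a measure of AP-1 activity. Fos, Fosb, Jun and Junb are classic immediate early genes, whose transcripts appear soon after a stimulus and are short-lived.

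RNA was measured on 4 single-colour mouse expression arrays, 1 per condition, all on 1 slide. The conditions were naive T and iTreg at 3 h, each for WT and for Nr4a-TKO. Naive T cells were sorted from spleen and lymph nodes as CD4+ CD25low CD44low CD62Lhigh Foxp3- cells. The iTreg cells were such naive cells kept for 3 h on plate-bound anti-CD3 and anti-CD28 with anti-IFN-γ, anti-IL-4, IL-2 and human TGF-β1, for which the labels give either of a pair of doses without assigning them to arrays. The Nr4a-TKO combines floxed Nr4a1 and Nr4a2 alleles with Nr4a3-/- on C57BL/6J, and the Cre driver is not given in the sources used here. The Nr4a-TKO donors of marrow also carried a Foxp3 hCD2-hCD52 knock-in. Nr4a-TKO cells were sorted out of mice given a mixture of marrow of both genotypes. The mice that gave WT cells had received WT marrow alone, so genotype and cell source cannot be told apart. In both cases the recipients were irradiated Rag2-/- mice. The age of the sorted chimeras, the number of mice behind an array and any pooling are not given in the sources used here, and what an AP-1 value owes to 1 mouse or 1 culture could not be measured.

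Signals are log2 intensities after background correction and quantile normalization. A difference of 1 on this scale is 2-fold, the threshold used for counting. There were no replicate arrays, so no difference was tested. The only error available is the array SD, the spread of spots printed in several copies within an array, combined over the 2 arrays of a difference. It was 0.17 for a typical probe and is given after ± at each probe's own signal level. It covers the spots within an array, and neither labelling, hybridization and scanning that differ between arrays nor the cells. A signal not well above background was raised, if lower, to the lowest one that was well above it on the same array. The difference is then called a bound. A dim signal already above that lowest one was left as it was, and its difference, though marked as a bound, is not a minimum. With 4 arrays in all, their number limits the precision.

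The labels were checked on the targeted genes. Both floxed genes kept signal on the arrays labelled Nr4a-TKO. In naive T, Nr4a1 was 1.33 higher on the Nr4a-TKO array than on the WT array, and the Nr4a2 probes were 0.19 and 0.76 higher. Nr4a1 was at 11.33 in WT iTreg and 11.81 in Nr4a-TKO iTreg, and both Nr4a2 probes were higher on the Nr4a-TKO iTreg array, by 1.37 and 1.38. Of the Nr4a3 probes, a pair was lower there, by -1.85 and -1.46, and the other was at 0.19. Which part of each transcript the alleles lack was not analysed here, so the probes do not settle the genotype, and below Nr4a-TKO names the label of an array. Markers of CD4 T cells (7 of 7) and naive T cells (5 of 5) were well above background on all 4 arrays. So were those of B cells (4 of 4), with a summed log2 level of 9.23 in WT naive T, 9.41 in Nr4a-TKO naive T, 8.38 in WT iTreg and 8.91 in Nr4a-TKO iTreg, and those of CD8 T cells (2 of 2), between 6.22 and 7.15. Of 5 myeloid markers, 2 were well above background on all arrays, Itgam and Csf1r. The summed level was 15.2 in WT naive T, 15.3 in Nr4a-TKO naive T and 15.1 on both iTreg arrays. Itgam, at 14.98 to 15.14, made up most of this sum, and Csf1r was at 11.15 to 11.75. Of the others, Lyz2 was dim at 3.79 to 4.27 and S100a8 at 2.52 to 4.22. Another, Cd14, was at 6.66 in WT naive T, 3.97 in Nr4a-TKO naive T, 3.77 in WT iTreg, where it was not well above background, and 4.58 in Nr4a-TKO iTreg, so it was highest on the WT naive array, which enters the WT difference with time and the naive difference between labels. The part of other cells in the AP-1 values was not tested.

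The promoters of Fos and Jun, the members furthest down from naive T cells to 3 h, and of Fosl2, the member furthest up, are shown to set these genes beside the motifs through which the family acts. Each line holds the 250 bases before the RefSeq start, 5′ to 3′ in the direction of the gene, with matches to the motifs searched in capitals.
Fos (GRCm38.p6, chr12:85473640-85473889, plus strand): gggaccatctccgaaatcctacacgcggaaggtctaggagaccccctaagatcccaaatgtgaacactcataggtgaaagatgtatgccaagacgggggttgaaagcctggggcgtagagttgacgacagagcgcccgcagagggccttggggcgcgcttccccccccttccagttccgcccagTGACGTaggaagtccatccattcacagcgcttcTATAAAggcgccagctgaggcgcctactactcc
Jun (GRCm38.p6, chr4:95052223-95052472, minus strand): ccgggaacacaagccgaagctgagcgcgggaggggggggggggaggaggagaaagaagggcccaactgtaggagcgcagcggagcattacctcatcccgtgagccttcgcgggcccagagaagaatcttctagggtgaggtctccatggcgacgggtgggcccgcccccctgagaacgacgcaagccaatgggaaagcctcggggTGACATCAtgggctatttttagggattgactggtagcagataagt
Fosl2 (GRCm38.p6, chr5:32136222-32136471, plus strand): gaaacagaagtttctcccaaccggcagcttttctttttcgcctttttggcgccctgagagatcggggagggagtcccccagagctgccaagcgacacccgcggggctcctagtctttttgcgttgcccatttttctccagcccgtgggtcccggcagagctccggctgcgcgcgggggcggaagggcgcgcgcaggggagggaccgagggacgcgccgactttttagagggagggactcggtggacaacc

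The motifs were searched on both strands in the promoters of the 8 members that the RefSeq table holds, which leaves out Fosl1. The AP-1 site TGANTCA was in 0 of the 8 and in 6.75% of 32851 promoters. The longer site TGACNTCA was in 1, Jun, starting 45 bases before the start as TGACATCA, and in 7.49% of all promoters. The core TGACGT, which overlaps the longer site where N is G, was in Fos and Batf and in 6.47% of all promoters, and TATAAA was in Fos alone among the 8 and in 12.4% of all. The Nr4a site AAAGGTCA (1.34% of all promoters) and the CArG box (1.47%) were in none of the 8. A match is only a run of letters in this window, and a motif without one may lie outside it.

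From naive T cells to iTreg at 3 h the family split. In WT cells Fosl2 and Fosl1 were more than 2-fold higher and Jun, Fos, Jund and Fosb more than 2-fold lower, whereas Batf, Junb and Batf3 were within 2-fold. Thus 2 of 9 members were higher, where 8.36% of 23418 genes were, and 4 of 9 were lower, where 8.51% of genes were. In Nr4a-TKO cells Fosl2 was higher and Fos, Jun and Jund lower, 1 and 3 of the 8 members measured, against 7.73% and 7.93% of 23920 genes. The median difference of the members was -0.65 in WT and -0.87 in Nr4a-TKO, beside -0.05 and -0.02 over all genes. An array of bulk RNA cannot tell fewer cells with a transcript from less of it per cell.

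**Figure D1:**
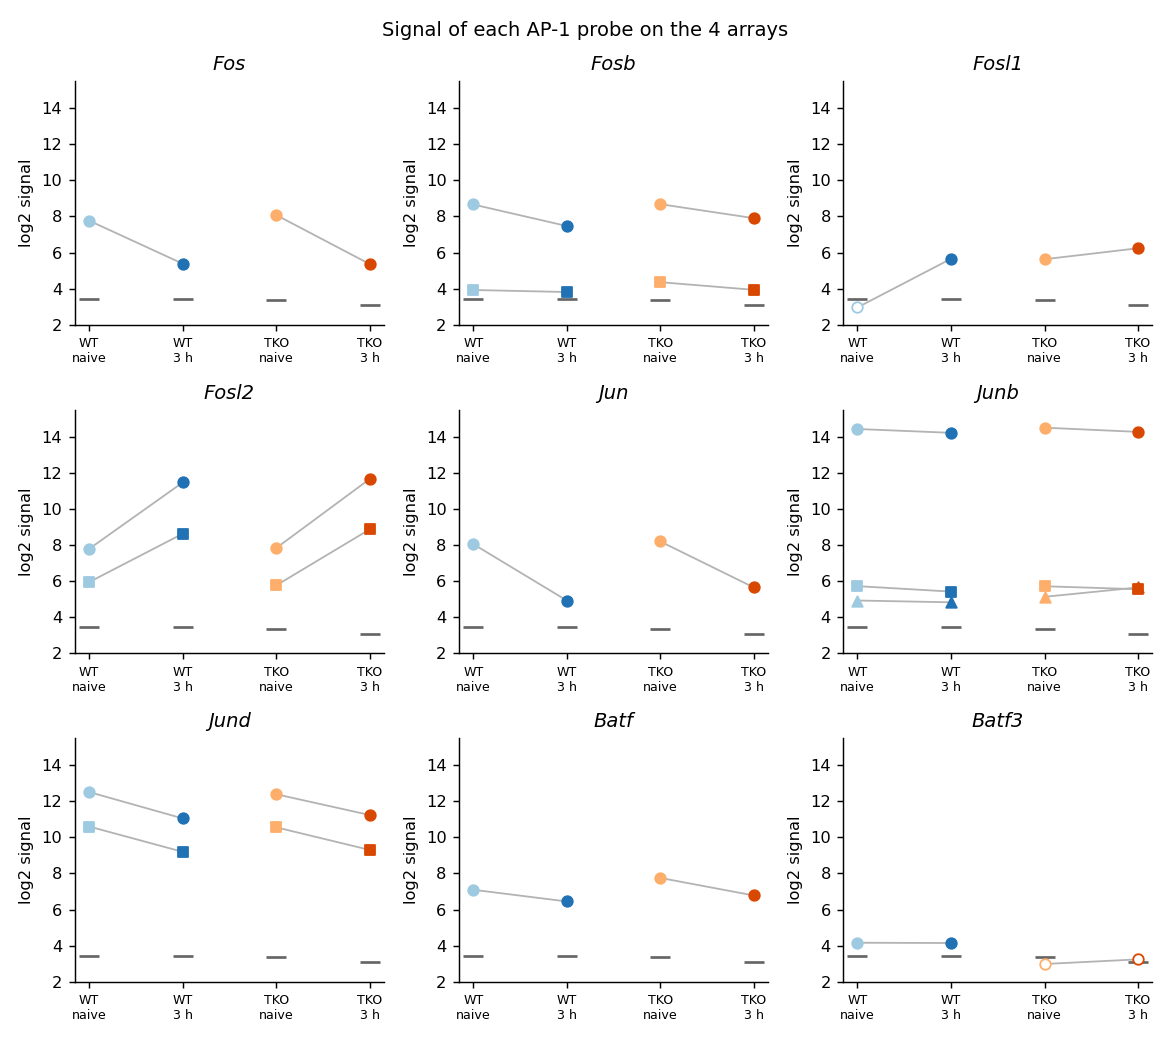
Log2 signal (vertical axis) of each AP-1 probe on the 4 arrays (horizontal axis), 1 panel per gene, with 1 array per point. Circles, squares and triangles are the probes of a gene in the order of their mean signal, brightest first, lines join the arrays of 1 genotype label, open symbols are not well above background, and the short bars are the lowest signal well above background on that array. Fosl2 slopes upwards under both labels, Fos, Jun and Jund slope downwards, and Junb is nearly flat near 14. Heights of different probes are not comparable.

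Among the Fos proteins, Fosl2 (Fra-2), which has no classical transactivation domain of the kind found in Fos, stood out. Its brighter probe, at chr5:32460076-32460135 on mm9, read 7.78 in WT naive T, 7.83 in Nr4a-TKO naive T, 11.46 in WT iTreg and 11.65 in Nr4a-TKO iTreg. Both iTreg arrays were far above both naive arrays. The difference was 3.68 ± 0.17 in WT, or 12.8-fold, and 3.83 ± 0.17 in Nr4a-TKO, or 14.2-fold. It ranked 22nd from the highest of 23418 genes in WT and 18th of 23920 in Nr4a-TKO. The second Fosl2 probe lies 4988 bases away, at chr5:32455088-32455147, and read 5.94, 5.76, 8.62 and 8.86 in the same order. It gave smaller differences in the same direction, 2.68 ± 0.19 in WT and 3.11 ± 0.20 in Nr4a-TKO.

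Fosl1 (Fra-1), the related Fos protein, was, with Fosb, a member whose difference passed 2-fold in WT and not in Nr4a-TKO. Its probe, at chr19:5455496-5455555, read 2.96 in WT naive T, where it was not well above background, 5.63 in Nr4a-TKO naive T, 5.65 in WT iTreg and 6.24 in Nr4a-TKO iTreg. WT naive T was thus the low array and the other 3 were near each other. Fosl1 was at least 4.62-fold higher at 3 h in WT (a log2 bound of 2.21) and 1.52-fold higher in Nr4a-TKO (0.61 ± 0.21). Its spots were dim throughout, with a mean intensity of 24.8 in WT naive T, 65.9 in Nr4a-TKO naive T, 69.1 in WT iTreg and 95.3 in Nr4a-TKO iTreg, over a local background of 19 to 20. When 50 was added to all intensities before the logarithm, the WT difference was 0.72 and no longer past 2-fold.

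Fos, the founding Fos protein, had its higher signals before culture. The probe at chr12:86818118-86818177 read 7.77 in WT naive T, 8.08 in Nr4a-TKO naive T, 5.38 in WT iTreg and 5.36 in Nr4a-TKO iTreg. Both iTreg signals were below both naive signals. How many of all genes separate by stage, as Fosl2 and Jun also do, was not computed. Fos was 5.21-fold lower at 3 h in WT (-2.38 ± 0.20) and 6.59-fold lower in Nr4a-TKO (-2.72 ± 0.20).

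Fosb, a Fos protein that is made in a long and a truncated form, went the same way less far. The brighter probe, at chr7:19888168-19888227, read 8.66, 8.68, 7.47 and 7.90 on the WT naive, Nr4a-TKO naive, WT iTreg and Nr4a-TKO iTreg arrays. It was 2.29-fold lower at 3 h in WT (-1.19 ± 0.17) and 1.71-fold lower in Nr4a-TKO (-0.77 ± 0.17), so only the WT difference passed 2-fold. The second probe, 1978 bases away at chr7:19890146-19890205, was dim at 3.93, 4.36, 3.82 and 3.94 and gave -0.11 ± 0.34 in WT and -0.42 ± 0.31 in Nr4a-TKO. With the mean of both probes as the value for Fosb the WT difference was -0.65, within 2-fold.

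Among the Jun proteins, Jun had the lowest difference of any member in WT. Its probe, at chr4:94716928-94716987, read 8.05 in WT naive T, 8.19 in Nr4a-TKO naive T, 4.92 in WT iTreg and 5.64 in Nr4a-TKO iTreg. Both iTreg arrays were below both naive arrays. The difference was -3.13 ± 0.20 in WT, or 8.73-fold lower, and -2.55 ± 0.20 in Nr4a-TKO, or 5.85-fold lower. In WT this was 104th from the lowest of 23418 genes.

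Jund, a Jun protein made widely in resting cells, was lower at 3 h at both of its probes, whose starts are 134 bases apart. The brighter, at chr8:73224436-73224495, read 12.51, 12.38, 11.04 and 11.23 on the WT naive, Nr4a-TKO naive, WT iTreg and Nr4a-TKO iTreg arrays. It was 2.76-fold lower in WT (-1.46 ± 0.17) and 2.22-fold lower in Nr4a-TKO (-1.15 ± 0.17). The other, at chr8:73224302-73224361, gave -1.40 ± 0.16 and -1.25 ± 0.16. With scaling to the 75th percentile the Nr4a-TKO difference of Jund was -0.97, just inside 2-fold.

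Junb, the Jun protein that partners Batf in T helper cells, was near its naive signal at 3 h. The brightest probe, at chr8:87500843-87500902, read 14.42 in WT naive T, 14.49 in Nr4a-TKO naive T, 14.21 in WT iTreg and 14.26 in Nr4a-TKO iTreg, with no saturated spot. The differences were -0.21 ± 0.16 in WT and -0.23 ± 0.16 in Nr4a-TKO. A probe 1038 bases away, at chr8:87501881-87501940, gave -0.30 ± 0.22 and -0.17 ± 0.22. The third probe carries the name Junb but was designed on another transcript, 4208 bases away at chr8:87496635-87496694, and read 4.92, 5.13, 4.82 and 5.64, which is -0.10 ± 0.23 in WT and 0.52 ± 0.22 in Nr4a-TKO. All 3 probes were within 2-fold under both labels.

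Batf and Batf3 lack a transactivation domain of their own and act through Jun partners and Irf4. Batf, at chr12:87049872-87049929, read 7.09 in WT naive T, 7.75 in Nr4a-TKO naive T, 6.44 in WT iTreg and 6.78 in Nr4a-TKO iTreg. Each iTreg array was below the naive array of its label, by -0.65 ± 0.17 in WT and -0.97 ± 0.17 in Nr4a-TKO, which is 1.96-fold and just inside the threshold. Batf3, at chr1:192932528-192932587, read 4.16, 2.98, 4.14 and 3.24 in the same order as the other genes and was well above background on the WT arrays only. Its WT difference was -0.01 ± 0.32, and no difference was computed in Nr4a-TKO, where neither array was well above background.

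**Figure D2:**
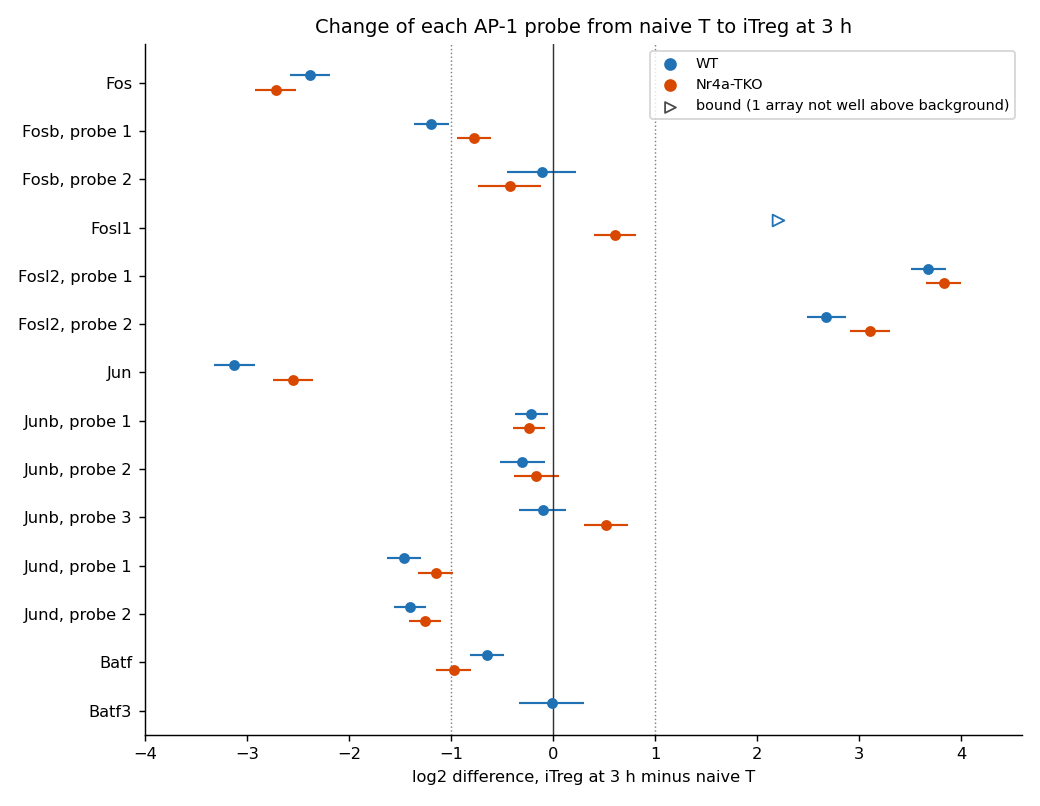
Log2 difference of iTreg at 3 h minus naive T (horizontal axis) for each AP-1 probe (vertical axis), in WT (blue) and Nr4a-TKO (orange), with bars of 1 array SD. Each point comes from 1 array against 1 array, dotted lines mark 2-fold, and the open triangle is a bound. Both Fosl2 probes lie between 2.68 and 3.83, Fos and Jun between -3.13 and -2.38, and Fosl1 has its 2 labels furthest apart.

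The arrays of the WT difference and of the Nr4a-TKO difference are not shared, so the pairs can be set beside each other. The Nr4a-TKO difference minus the WT difference was -1.60 or lower for Fosl1, whose WT difference is a bound, and 0.58 for Jun, which was the less negative in Nr4a-TKO. It was -0.34 for Fos and -0.32 for Batf, which were the more negative in Nr4a-TKO. It was 0.42 at the brighter Fosb probe, 0.31 at the brighter Jund probe, 0.15 at the brighter Fosl2 probe and -0.02 at the brightest Junb probe. These are differences between single pairs of arrays, without a replicate check.

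**Figure D3:**
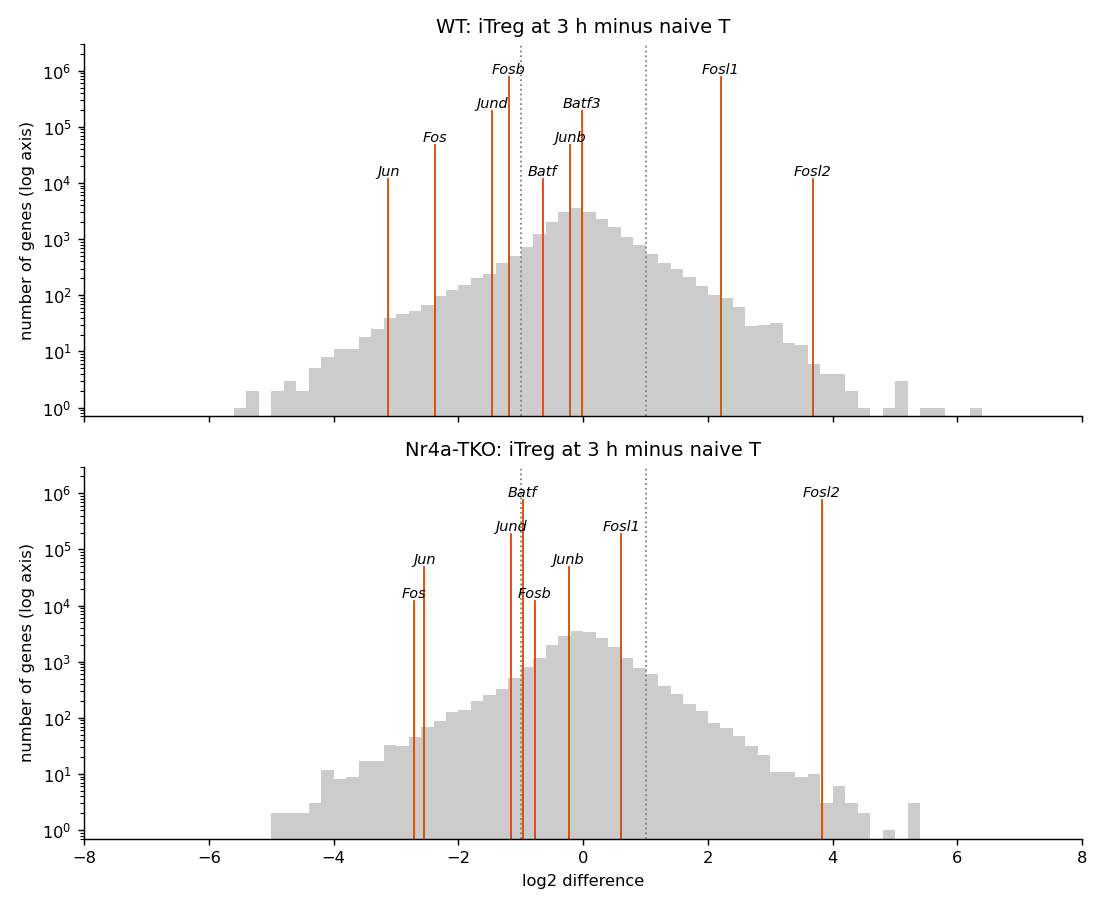
Number of genes (vertical axis, log scale) by log2 difference of iTreg at 3 h minus naive T (horizontal axis), in WT (23418 genes, upper panel) and Nr4a-TKO (23920 genes, lower panel). Orange lines mark the AP-1 members, their heights only separate the names, and dotted lines mark 2-fold. Fosl2 lies in the right tail of both panels and Jun and Fos in the left tail of both.

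Between the labels at the same stage, no member but Fosl1 in naive T differed by more than 2-fold. In naive T, 1 of 9 members was more than 2-fold higher in Nr4a-TKO, where 1.9% of 23309 genes were, and 0 were more than 2-fold lower, where 1.69% of genes were. In iTreg at 3 h, 0 of 9 were more than 2-fold higher, where 1.73% of 23701 genes were, and 0 were lower, where 1.92% of genes were. 7 of the 9 were above 0 at each stage, with a median of 0.07 in naive T and 0.20 at 3 h, beside -0.02 and 0.00 over all genes. The share of all genes above 0 was not computed. Fosb, Fosl2, Junb and Jun in naive T, and Junb at 3 h, were above 0 by less than their array SD. These comparisons share their arrays with those of 3 h against naive T, so they are not independent of them.

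The member above 2-fold in naive T was Fosl1, at least 4.55-fold higher in Nr4a-TKO (a bound of 2.19). At 3 h its difference was 0.58 ± 0.21. The naive comparison turns on the same dim spot in WT naive T as the WT difference with time. On the Nr4a-TKO naive array the spot had a median of 64 and a pixel SD of 24.6 over 41 pixels, against 24.5 and 7.09 over 42 pixels in WT naive T. With 50 added to all intensities the naive difference was 0.71. The cytokine gene Il21, a target of Batf with Irf4, was likewise not well above background in WT naive T. It was 1.90 higher on this scale in Nr4a-TKO naive T. It was the 1 of 8 measured AP-1 target genes past 2-fold in naive T, beside 1.9% of all genes, and the median of the 8 was 0.17. Il21 counts among the 8 only through the Nr4a-TKO array on which it was high. Of the others, Il3 was at 0.46, Tnf at 0.45 and Il2 at 0.35, with Il2 not well above background in WT naive T. Fasl was at -0.01, Cd69 at -0.07, Il13 at -0.21 and Cd40lg at -0.32. Irf4 itself was 1.25 higher in Nr4a-TKO naive T, and a link between these genes was not tested.

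Batf3 went the other way at both stages. It was at least 1.73-fold lower in Nr4a-TKO in naive T (-0.79). At 3 h it was 1.87-fold lower (-0.91 ± 0.37), and there the dim Nr4a-TKO signal was not raised, so this is not a minimum. The spots were near background on every array, with a median intensity of 31 on each WT array and 25.5 and 26 on the Nr4a-TKO arrays, over a local background of 19 to 20. The 3 h difference was -1.13 with scaling to the 75th percentile, past 2-fold, and -0.19 with 50 added to all intensities. The naive difference likewise ranged from -1.18 with no filter on dim probes to -0.17 with 50 added, so its bound holds only for the processing used here.

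Batf was 1.58-fold higher in Nr4a-TKO naive T (0.66 ± 0.17) and 1.26-fold higher at 3 h (0.33 ± 0.17). Jun was 1.11-fold higher in naive T (0.14 ± 0.17) and 1.65-fold higher at 3 h (0.72 ± 0.22). The brighter Fosb probe was at 0.02 ± 0.17 and 0.43 ± 0.17, and Fos at 0.31 ± 0.17 and -0.02 ± 0.22. So Batf and Fos had their larger difference in naive T, and Jun and the brighter Fosb probe at 3 h. The second, dim Fosb probe did not share this, at 0.43 ± 0.31 in naive T and 0.12 ± 0.34 at 3 h. The brighter Fosl2, Jund and brightest Junb probes were between -0.12 and 0.20 at both stages. The third Junb probe was 0.82 ± 0.22 higher at 3 h, which the other Junb probes, at 0.05 and 0.13, did not share.

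**Figure D4:**
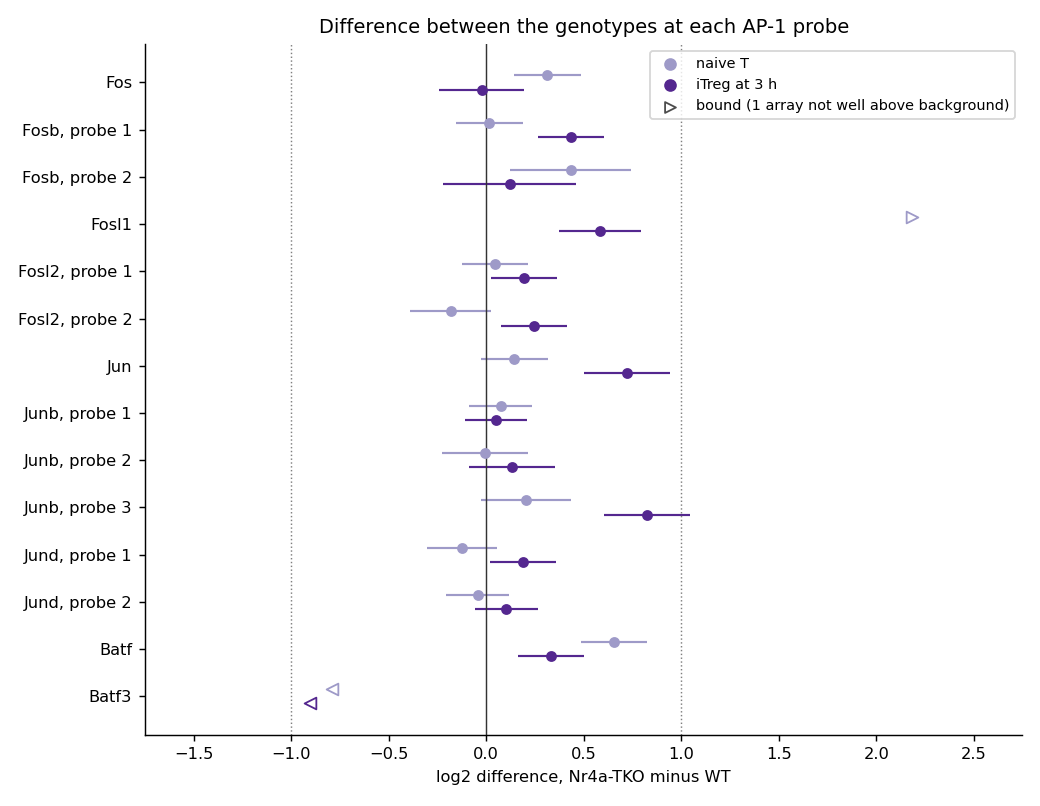
Log2 difference of Nr4a-TKO minus WT (horizontal axis) for each AP-1 probe (vertical axis), in naive T (light) and iTreg at 3 h (dark), with bars of 1 array SD. Each point is 1 array against 1 array, dotted lines mark 2-fold, and open triangles are bounds. Fosl1 in naive T, at 2.19 or more, is the only point past 2-fold, and both Batf3 bounds lie to the left, at -0.79 and -0.91.

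Related genes were taken as 5 lists, 44 genes in all. Of 11 other bZIP genes, 10 were measured in the 3 h comparisons, and 4 were more than 2-fold higher under both labels and 0 lower (median 0.49 in WT and 0.20 in Nr4a-TKO). Over all genes, 8.36% were higher and 8.51% lower in WT, and 7.73% and 7.93% in Nr4a-TKO. The 4 that were higher were Atf3, a stress-induced partner of Jun, at 2.56 in WT and 3.28 in Nr4a-TKO, and the small Maf proteins. Of these, Mafg was at 2.83 and 2.67, Mafk at 1.62 and 1.22, and Maff at 1.1 and 1.42. Maff was not well above background in naive T under either label. Maf, which activates Il4 and Il21 in T cells, was 1.29 higher in Nr4a-TKO than in WT at 3 h.

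The Irf partners of Batf had the highest median of the 5 lists at 3 h under both labels, though it is a median of only 2 genes. Of these, 2 of 2 were more than 2-fold higher, beside 8.36% of all genes in WT and 7.73% in Nr4a-TKO. Irf4 was 6.35 higher at 3 h in WT and 5.21 in Nr4a-TKO, and Irf8 was 2.18 and 1.67 higher. Of 14 genes of the MAP kinase and serum response pathways upstream of AP-1, 1 was lower in WT, Mapk3 (ERK1) at -1.13. In Nr4a-TKO 1 was higher, the ternary complex factor Elk3 at 1.13, which was also 1.12 higher than in WT at 3 h. Over all genes, 8.51% were lower in WT and 7.73% higher in Nr4a-TKO, so 1 of 14 is near the share of all genes. Between the labels at 3 h, 1.73% of all genes were higher in Nr4a-TKO. Of 4 genes of ubiquitin ligase complexes that act on Jun turnover, 0 passed 2-fold in any comparison. The shares of all genes were 1.69% to 8.51% by comparison and direction, so 0 of 4 is near them.

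Of 13 AP-1 target genes, 8 were measured in WT and 9 in Nr4a-TKO, and 4 were more than 2-fold higher at 3 h under each label, beside the same 8.36% and 7.73% of all genes. The early activation marker Cd69 was 3.30 higher in WT and 3.78 in Nr4a-TKO, and Tnf was 2.86 and 3.01 higher. Il2 was 3.36 higher in WT and 4.21 in Nr4a-TKO. Il21 was 1.21 higher in WT, and Ifng at least 1.21 in Nr4a-TKO. Il2 and Il21 were not well above background in WT naive T, nor was Ifng in Nr4a-TKO naive T. Each counts as measured in that comparison only through the 3 h array on which it was high. At 3 h, 4 of 9 were more than 2-fold higher in Nr4a-TKO than in WT, namely Il2 (1.19), Il21 (1.47), Il3 (at least 1.28) and Ifng (at least 1.15), and 0 were lower, beside 1.73% and 1.92% of all genes. Il3 and Ifng were not well above background in WT iTreg and count among the 9 only through the Nr4a-TKO array on which they were high. Il4, Il5, Il9 and Csf2 were not well above background on any array.

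**Figure D5:**
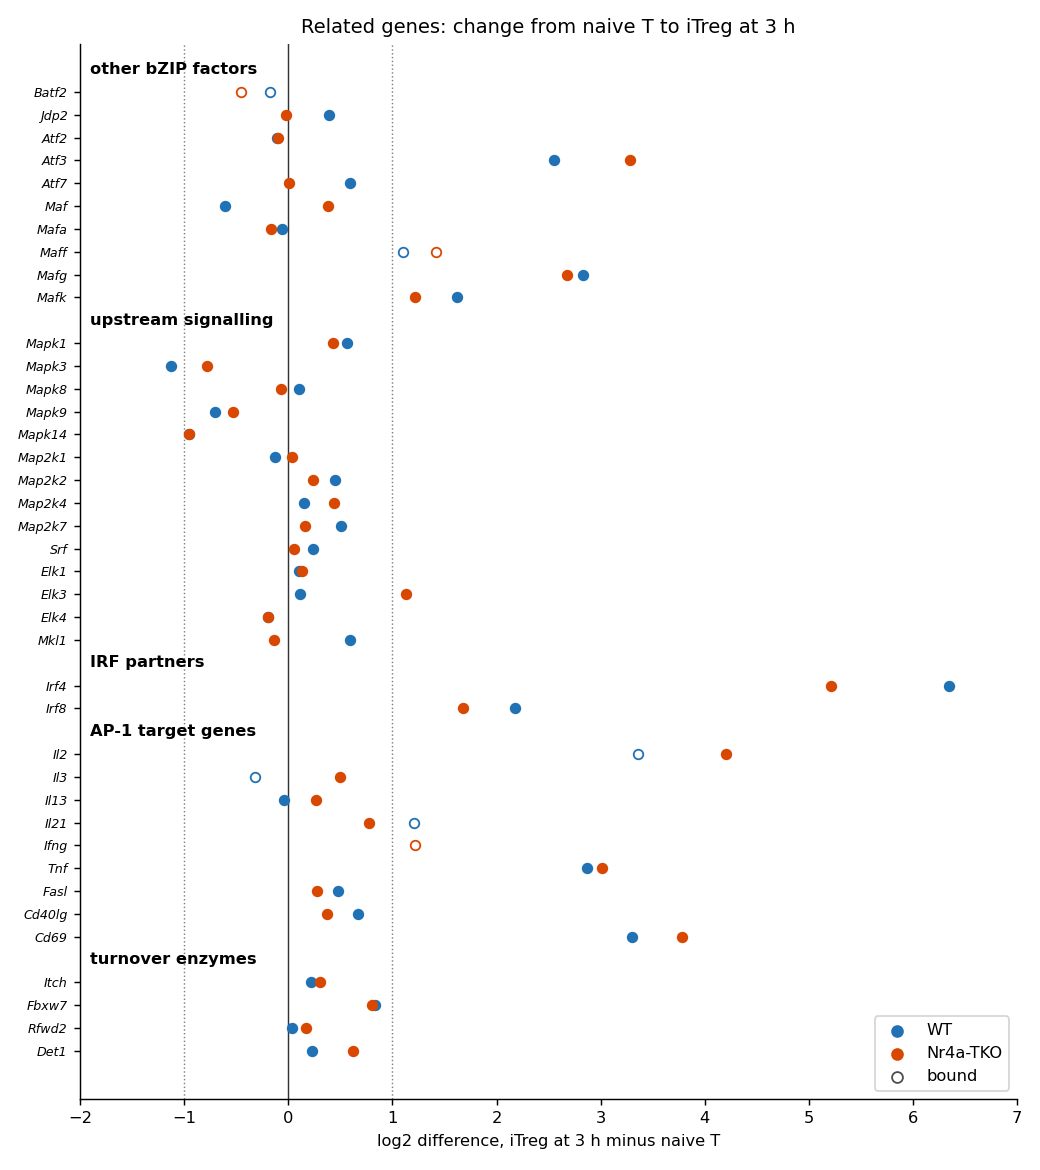
Log2 difference of iTreg at 3 h minus naive T (horizontal axis) for the measured genes of the 5 related lists (vertical axis), in WT (blue) and Nr4a-TKO (orange), each point 1 array against 1 array. Open symbols are bounds and dotted lines mark 2-fold. Irf4, Il2, Cd69, Tnf, Atf3 and Mafg lie to the right under both labels. The upstream signalling and turnover genes lie between -1.13 (Mapk3, WT) and 1.13 (Elk3, Nr4a-TKO).

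Genes with the most similar course over the 4 arrays were found for the 5 members that differed more than 2-fold in WT and were well above background on all arrays, by the distance between profiles with their own mean removed, among 15645 genes. The nearest to Fosl2 were the transferrin receptor gene Tfrc, at a distance of 0.19, Cd69, at 0.27, and Gm15645, at 0.35. Fos was nearest to Arrb1 (0.10), which encodes a β-arrestin, then Ablim1 (0.14). Jun was nearest to Gvin1, Capn2 and Adcy7, at 0.11 to 0.14. Jund was nearest to Pik3cd, a PI3 kinase subunit gene, then Gsk3b and N4bp2l1, at 0.04 to 0.06. Fosb was nearest to Itm2c (0.05), Mapk3 (0.05) and Apobec3 (0.07). The profiles have only 4 points each, and such likeness is a description of these arrays.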

How the data were processed

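Transcripts were measured on 4 single-colour arrays, 1 per condition. The authors deposited scanner output per array, with spot intensity, local background intensity, pixel counts, flags and other columns, made with Agilent Feature Extraction 11.5.1.1 and with probe positions on mm9. They also deposited a log2 value table, which was found to be log2 processed intensity minus each array's 75th percentile, while their methods name RMA. After the RMA steps, limma 3.58.1 in R 4.3.3 was used for normexp background correction (offset 0), quantile normalization, log2 and the mean over spots of a probe. Control and outlier-flagged spots were left out, 115 to 160 flagged spots per array, and 65.0 to 67.6% of probes were well above background. A gene took its probe with the highest mean. The lowest signals well above background, used as floors, were 3.45 and 3.37 on the naive arrays of WT and Nr4a-TKO and 3.43 and 3.07 on their iTreg arrays. A difference needed 1 of its 2 arrays well above background. Array SDs came from 300 probes with at least 5 spots. Later steps used Python 3.11.15, pandas 2.3.3, numpy 2.4.6 and matplotlib 3.10.9, and were tested on simulated data. Named items were every member and probe, list genes past 2-fold, targeted genes and the 3 nearest profiles of a member, of which 1 is not reported here. Members and lists were chosen with earlier results of these data known. RefSeq symbols and promoters are from GRCm38.p6, and since the probes are on mm9 their place within exons was not analysed here.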

Additional observations from a re-analysis of the deposited data

Results flagged for a closer look

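A pair of related genes had differences of opposite sign under the 2 labels, each larger than 0.17, the array SD of a typical probe. Maf was at -0.60 from naive T to 3 h in WT and at 0.39 in Nr4a-TKO, which differ by 0.99 (0.989 before rounding). Il3 was at -0.32 in WT, where the 3 h array was not well above background and the value is a bound, and at 0.49 in Nr4a-TKO, which differ by 0.81 (0.813 before rounding). Il3 was dim, and the dim second Fosb probe, at a like signal, had an array SD of 0.34 in WT, so the WT value of Il3 is not beyond the array error at its level. Neither difference was tested, and no AP-1 member behaved this way at the probe that stands for its gene.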

How the results depend on the processing

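No paired analysis was possible because each condition had 1 array. Counts are of the members measured under each setting, 9 in the comparisons given above except 8 for the change in Nr4a-TKO. With an offset of 50 the members higher at 3 h in WT were 1 (2 in the main setting), beside 4.09% of all genes. Those higher in Nr4a-TKO naive T were 0 (1 in the main setting), beside 0.438%. Requiring both arrays well above background gave the same 1 and 0, beside 7.92% and 1.1%, since Fosl1 then drops out. With no filter on dim probes 1 member was lower in Nr4a-TKO naive T (0 in the main setting), beside 2.62% of all genes. With the processed intensity scaled to the 75th percentile, 1 was lower in Nr4a-TKO than in WT at 3 h (0 in the main setting), beside 2.66%. The deposited values gave the same 1, beside 2.67%. At 3-fold, 2 were lower at 3 h in WT (4 at 2-fold), beside 3.78%. At 1.5-fold, 2 were higher and 5 lower at 3 h than in naive T in Nr4a-TKO, beside 16.2% and 16.7% of all genes. At this threshold 2 were higher and 1 lower in Nr4a-TKO naive T than in WT naive T, beside 5.17% and 5.23%. Between the labels at 3 h, 1 was higher and 1 lower in Nr4a-TKO, beside 5.24% and 5.16%. Every other count was within 1.5 times its value. Of 276 differences of single members under 8 alternatives, 220 moved by less than 0.17 and 56 by more. Many of these could not move. The brightest probe of every member is a RefSeq mRNA probe, so that setting repeated the main values. The filters on dim probes could change only dim members, and the mean of all probes only genes with several. The deposited values nearly repeat the 75th percentile scaling, so the 220 do not measure robustness. No difference past 2-fold changed sign, and 3 smaller ones did. No other scaling or background correction moved the median of all genes by over 0.1. The bound of Fosl1 in WT ranged from 0.72 with the offset of 50 to 2.69 with no filter, and Batf3 in Nr4a-TKO minus WT at 3 h from -1.13 with the 75th percentile to -0.19 with the offset.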
